A study of Mus musculus with 244 samples.

Results

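Amh and Amhr2, the genes of anti-Mullerian hormone and of its type II receptor, were followed in single somatic cells and oocytes of the mouse ovary. They are 2 of 25149 gene rows of the count table and were taken by name. The cells came from CD-1 mice (an outbred stock with no transgene or treatment in the labels) at postnatal day 6, and every cell was a SMART-Seq2 library (full-length cDNA of 1 cell) of its own. Ovaries of several pups were pooled, digested with liberase, and follicles were staged by their look under the microscope before accutase released their cells, with a longer incubation for primary and secondary follicles. Somatic cells numbered 40 from primordial follicles (a resting oocyte in flat cells), 47 from transitioning follicles (flat and cuboidal cells mixed), 56 from primary follicles (1 cuboidal layer) and 42 from secondary follicles (further layers). Oocytes numbered 13, 19, 20 and 7 at the same stages. The labels tie no cell to an animal or a collection. The cells of a stage were therefore treated as a single sample, and no test between stages was possible. Intervals are exact 95% intervals of counting error alone. They are far narrower than the spread between plates, which is therefore given beside each level.

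Anti-Mullerian hormone is a secreted dimer of the TGF-beta family. In the male fetus it makes the Mullerian duct regress, and in the ovary granulosa cells of growing follicles make it, where it restrains the recruitment of resting follicles and the response to follicle-stimulating hormone. It is cut by proprotein convertases, binds Amhr2, and Amhr2 then acts with a type I receptor (Acvr1, Bmpr1a or Bmpr1b) to phosphorylate Smad1, Smad5 and Smad9, whose targets include the Id genes and the inhibitory Smads, Smad6 and Smad7. Transcription of Amh is known to respond to Nr5a1, Gata4, Gata6, Wt1 and Sox9, mostly from work on fetal Sertoli cells.

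On the GRCm38 build with GENCODE M21 models, Amh lies on the + strand of chromosome 10 (80805243 to 80807648) with 1 annotated transcript of 5 exons and 1670 bases. The gene Sf3a2, a splicing factor on the same strand, ends 318 bases before it, and Jsrp1 on the other strand lies 847 bases past its end. Amhr2 lies on the + strand of chromosome 15 (102445367 to 102454633) with 5 annotated transcripts, the longest of 11 exons and 1938 bases. The 250 bases before the Amhr2 start site are shown because on plate 1 its reads were present in primordial cells, where those of Amh were not, and Nr5a1, a nuclear receptor that is known to act on both genes, was measured in the same cells. RefSeq gives them on GRCm38.p6 at chr15:102445117-102445366, + strand.
Amhr2 promoter: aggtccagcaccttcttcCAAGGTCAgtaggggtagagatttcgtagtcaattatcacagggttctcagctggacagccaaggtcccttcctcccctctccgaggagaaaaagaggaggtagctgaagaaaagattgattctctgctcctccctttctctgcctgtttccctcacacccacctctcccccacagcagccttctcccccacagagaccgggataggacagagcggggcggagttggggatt
Capitals mark CAAGGTCA, an extended half-site of the kind Nr5a1 binds, found at bases 19 to 26 of the window. On either strand these letters stood in 1.33% of 32851 promoter windows of the same length. The shorter AGGTCA, which lies inside it, stood in 14.0% of them. GATA was found at 2 places in this window, and in 53.6% of all windows. No such window was available for Amh, so the sequences of the 2 genes were not compared. These matches are descriptions of sequence only.

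The table had been assembled from 6 library plates that each list between 15672 and 18533 genes, and a gene that a plate does not list has no value there. Amh had values on 6 plates and Amhr2 on 3 (plates 1, 2 and 4), so Amhr2 could be read in 85 of 185 somatic cells and 36 of 59 oocytes. Of genes with 1 annotated transcript, 99.7% were listed on every plate, against 14.9% of genes with 6 or more. Amhr2 values may therefore not cover every transcript of the gene, and its levels are compared within plates. Summed counts per cell over all genes ran from 5150 to 409310 in somatic cells and from 5440 to 801258 in oocytes. Levels are given as CPM, counts per 1000000 counts, with the total taken from the 13266 genes that all plates list. Of the somatic cells, 177 of 185 had reads of Inha, the inhibin alpha subunit of granulosa cells, and 148 of 185 had reads of Foxl2, their defining transcription factor. The 8 somatic cells with no Inha reads held no Amh reads (0 of 8) and, where listed, no Amhr2 reads (0 of 4). Each of the 8 had reads of stroma and theca markers (10 genes, of which the plates list 7 to 9), summing to between 7268 and 101183 CPM. Of the 177 cells with Inha reads, 94 also had reads of these markers, with a median of 33.8 and a maximum of 81806 CPM. Immune markers summed to at most 343 CPM and endothelial markers to at most 614 CPM in any stage of a plate with at least 5 cells, with Cd52 at 0 in all somatic cells. Surface epithelium markers summed to at most 688 CPM in these groups. Oocyte markers (18 genes, of which the plates list 5 to 9) summed to between 3.25 and 5280 CPM, highest in secondary cells of plate 6. Single cells reached 1662 CPM of immune, 4073 CPM of endothelial and 8480 CPM of surface epithelium markers.

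Amh was low or unread in somatic cells of primordial follicles and abundant at the 3 later stages. Reads of Amh were found in 30.0% of primordial somatic cells (12 of 40, interval 16.6 to 46.5%), 91.5% of transitioning cells (43 of 47, 79.6 to 97.6%), 85.7% of primary cells (48 of 56, 73.8 to 93.6%) and 100% of secondary cells (42 of 42, 91.6 to 100%). Of the 8 cells with no Inha reads, 7 were primary and 1 was primordial. Among cells with Inha reads, Amh was read in 48 of 49 primary and 12 of 39 primordial cells. Over single cells the lowest, median and highest levels were 0, 0 and 3473 CPM at the primordial stage. They were 0, 1314 and 12462 CPM at the transitioning stage, 0, 488 and 21610 CPM at the primary stage, and 513, 3271 and 14512 CPM at the secondary stage. The stages overlapped widely cell by cell, but each of the 42 secondary cells exceeded the median cell of the primary stage.

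**Figure D1:**
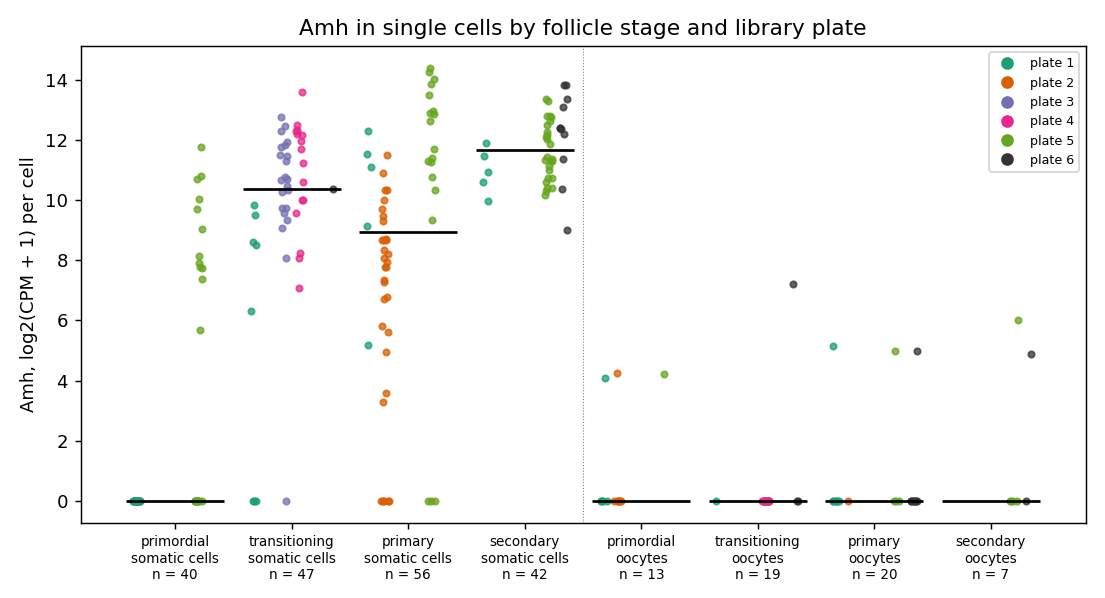
Amh in every cell as log2(CPM + 1), by stage (x axis; somatic cells left of the dotted line, oocytes right of it), with a colour for each library plate and a black line at the median of the group. All 19 primordial somatic cells of plate 1 lie at 0, whereas the 42 secondary somatic cells lie at or above 513 CPM.

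Summed over somatic cells, Amh stood at 166 CPM (145 to 190) for primordial follicles and 2345 CPM (2291 to 2399) for transitioning follicles. Primary follicles gave 1137 CPM (1096 to 1178) and secondary follicles 3757 CPM (3639 to 3878). Transitioning cells were thus 14.1-fold higher than primordial cells (log2 ratio 3.82, interval 3.62 to 4.02). A log2 rise of at least 1 was common in that comparison and was passed by 41.1% of 4664 genes, so a rise of that size was not particular to Amh. Stroma and theca markers summed to between 145 and 834 CPM in the transitioning cells of plates 1, 3 and 4, against 7360 and 10192 CPM in the primordial cells of plates 5 and 1, and their part in this difference was not tested. Primary cells were lower than transitioning cells (log2 ratio -1.04, -1.11 to -0.98), where 34.2% of 4515 genes were lower by as much. Secondary cells were higher than primary cells (1.72, 1.66 to 1.79), where 35.4% of 4523 genes were higher by as much.

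The fall at the primary stage rested on 1 plate. Amh in primary cells was 351 CPM on plate 2 (32 cells), 1417 CPM on plate 1 (5 cells) and 6025 CPM on plate 5 (19 cells), a 17.2-fold range within 1 stage. Plates spanned 0 and 272 CPM for primordial cells, 317 to 3080 CPM for transitioning cells and 2395 to 5903 CPM for secondary cells. Every summed plate value of the primordial stage thus lay below every summed value of the later stages. The summed ranges of transitioning, primary and secondary cells overlapped one another. By means of single cells the separation did not hold. Primordial cells of plate 5 had a mean of 500 CPM, above transitioning cells of plate 1 (307 CPM) and primary cells of plate 2 (452 CPM). Other later-stage groups of at least 8 cells on a plate had means of 2251 to 6763 CPM. With plates weighted equally, the stages stood at 136, 1829, 2598 and 4028 CPM from primordial to secondary. Without plate 2 the primary cells lay above the transitioning cells (log2 ratio 0.69), and secondary and primary cells were level (-0.0086). The deep primary libraries of plate 2 (median 58712 counts over the listed genes, against 14488 on plate 5) carried 29646 CPM of Inha, against 46502 on plate 5. Their stroma and theca markers summed to 13347 CPM, against 6537 on plate 5. The part of depth and of other cell types in the difference between these plates was not tested.

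Within plates, where stages can be set side by side, the step out of the primordial stage was the steep one. On plate 5, the 21 primordial cells summed to 272 CPM of Amh, the 19 primary cells to 6025 CPM and the 26 secondary cells to 3788 CPM. By these sums primary cells were 22.2-fold above primordial cells there, and secondary cells were lower than primary cells (log2 ratio -0.67, -0.76 to -0.58). The primordial sum includes deep cells of 87884, 114349 and 161324 counts with no Amh read. Means of single cells were 500 CPM for primordial and 6763 CPM for primary cells of plate 5. On plate 1, no Amh read was found in 19 primordial cells, which by the limit of 3 counts allows a share of up to 15.8% (the exact interval reaches 17.6%), while 8 transitioning cells gave 317 CPM, 5 primary cells 1417 CPM and 5 secondary cells 2395 CPM. Against the floor of 3 counts over the group, transitioning cells of plate 1 were at least 51.7-fold higher than primordial cells. The 109 counts of these transitioning cells included 56 and 29 in single cells. A further 17 came from the cell that the metadata give as primary. Primordial cells of both plates had similar median depth (21220 counts on plate 1 and 26518 on plate 5) and similar summed Inha (7198 and 6288 CPM), but Amh reads in 0 of 19 and 12 of 21 cells. Markers of the response to dissociation summed to 67920 CPM in the primordial cells of plate 1 and to 15231 CPM in those of plate 5, over 7 and 5 listed genes. Within plate 1 they summed to 67920, 18648, 52424 and 32333 CPM from the primordial to the secondary stage. Stroma and theca markers of plate 1 summed to 10192, 145, 376 and 13 CPM in the same order, and those of plate 5 to 7360, 6537 and 3951 CPM at the primordial, primary and secondary stages. Of the 9 stroma markers these plates list, Cyp17a1 was at 0 in each of these groups. The part of either list in the steps of Amh was not tested.

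**Figure D2:**
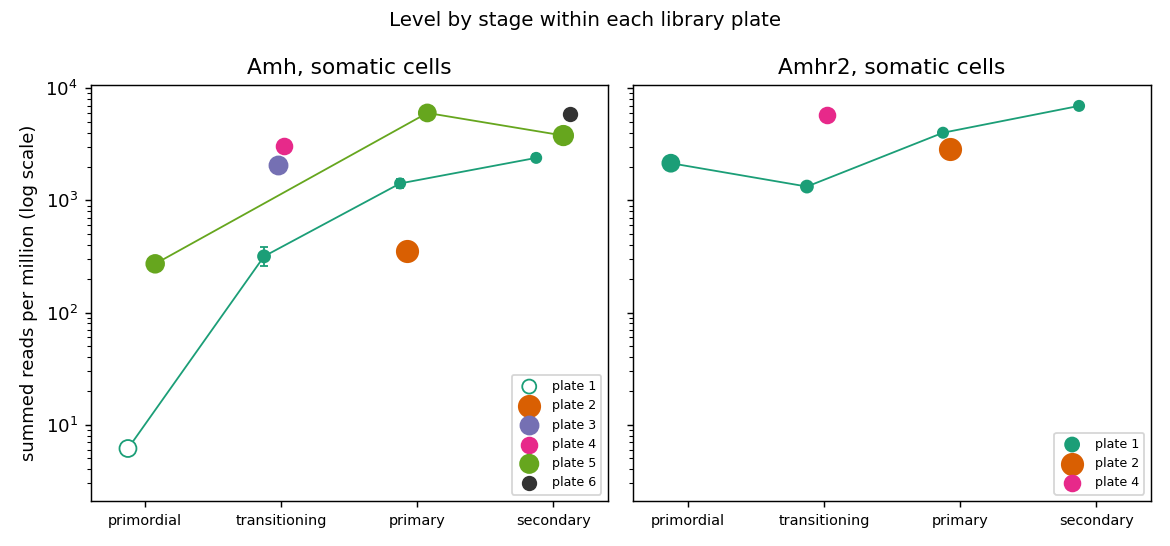
Summed level (CPM, log axis) of Amh (left) and Amhr2 (right) in somatic cells by stage, for each plate with at least 5 cells of that stage. Point area grows with the number of cells, bars are the counting intervals, lines join stages of a plate, and the open circle marks the floor of 3 counts where no read was found. Primary cells of plate 2 (351 CPM of Amh) lie far below those of plate 5 (6025 CPM).

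Amhr2, the receptor, was already present in somatic cells of primordial follicles. On plate 1 it was read in 15 of 19 primordial cells (78.9%, 54.4 to 93.9%), with a lowest, median and highest cell of 0, 1543 and 11413 CPM. Transitioning cells had reads in 6 of 8 on plate 1 and in 16 of 16 on plate 4, primary cells in 5 of 5 on plate 1 and 28 of 32 on plate 2, and secondary cells in 5 of 5 on plate 1. The 5 primary cells of plate 1 had 1032, 1788, 3561, 6863 and 9376 CPM. The 5 secondary cells had 298, 6172, 6516, 6671 and 10964 CPM. These groups overlapped, since 1 secondary cell lay below every primary cell and the highest primordial cell exceeded them all.

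**Figure D3:**
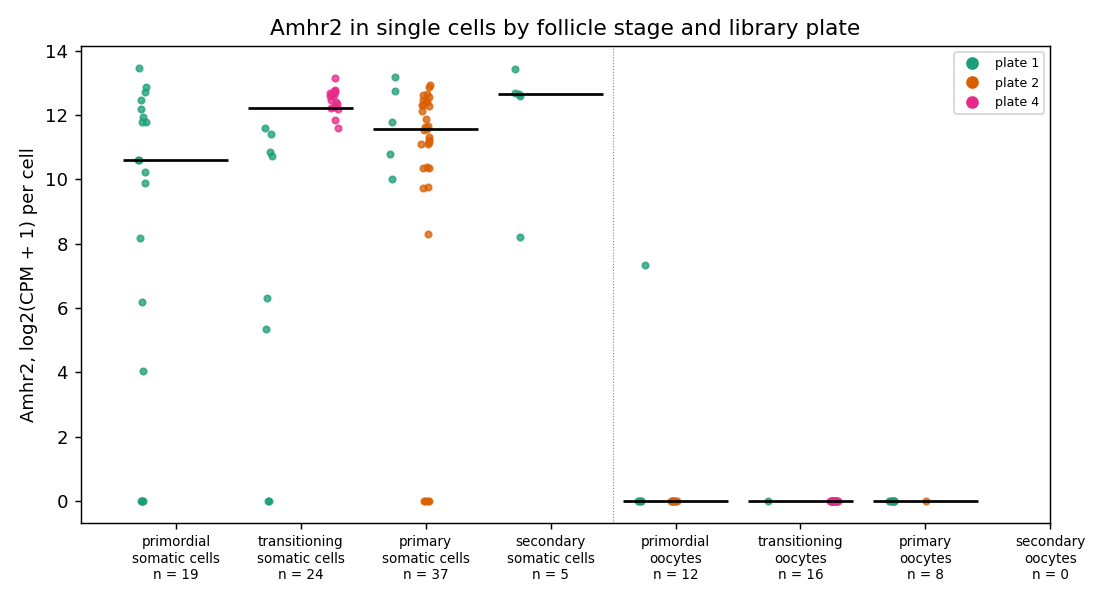
Amhr2 in every cell of plates 1, 2 and 4 as log2(CPM + 1), by stage (x axis; somatic cells left of the dotted line, oocytes right of it), with colours for plates and a black line at the median of the group; no secondary oocyte had a value. Of the primordial somatic cells 15 of 19 carry reads, and of 36 oocytes only 1 does.

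Summed over the cells with a value, Amhr2 stood at 2147 CPM (2019 to 2280) for primordial follicles and 4869 CPM (4767 to 4972) for transitioning follicles. Primary follicles gave 2994 CPM (2924 to 3065), and the 5 cells of secondary follicles gave 6964 CPM (6672 to 7265). Within plate 1 the order differed, at 2147, 1329, 4014 and 6964 CPM from primordial to secondary. Transitioning cells there were lower than primordial cells (log2 ratio -0.69, -0.85 to -0.53), primary cells were 3.02-fold above transitioning cells and secondary cells 1.73-fold above primary cells. The high transitioning sum came from plate 4 (5719 CPM), and without that plate transitioning cells were lower than primordial cells. Secondary cells of plate 1 were 3.24-fold above primordial cells in Amhr2 and at least 391-fold above the same cells in Amh.

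The same cells show how the hormone and its receptor were combined. In primordial cells of plate 1, 15 had Amhr2 alone, 4 had neither and 0 had Amh. Of 24 transitioning cells 20 had both, 2 had Amhr2 alone, 1 had Amh alone and 1 had neither. Of 37 primary cells 32 had both, 1 had Amhr2 alone and 4 had neither, and the 5 secondary cells had both. The 4 primary cells with neither also had no reads of Inha. Over the 85 cells, 57 had both, 18 Amhr2 alone, 1 Amh alone and 9 neither. The single cell with Amh alone carried the transitioning stage in its title and the primary stage in the cell metadata.

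By summed levels per kilobase of transcript, the receptor exceeded the hormone in every stage and plate where both were listed. Lengths were those of the longest model of each gene. Single cells did not all keep this order, since 1 transitioning cell of plate 4 had 12462 CPM of Amh and 4671 CPM of Amhr2. Amhr2 stood at 1108 CPM per kilobase in primordial cells of plate 1, where Amh had no read, so the excess was at least 302-fold. It was 3.61-fold in transitioning, 2.44-fold in primary and 2.51-fold in secondary cells of plate 1. On plate 4 the transitioning cells held 2951 CPM per kilobase of Amhr2 and 1844 of Amh, a 1.60-fold excess. On plate 2 the primary cells held 1468 of Amhr2 and 210 of Amh, a 6.99-fold excess.

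**Figure D4:**
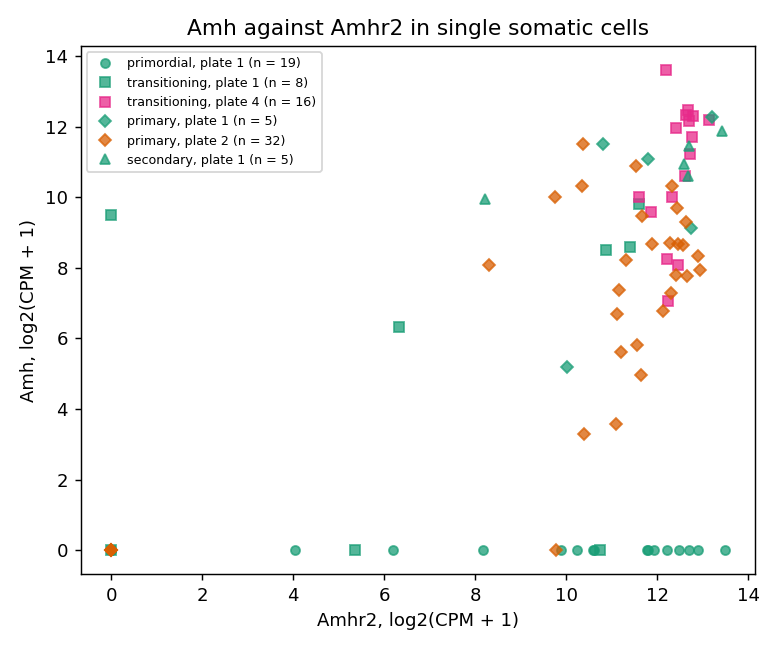
Amh (y axis) against Amhr2 (x axis) in the 85 somatic cells with values for both, each as log2(CPM + 1), with a symbol for each stage and a colour for each plate. The 19 primordial cells lie along the x axis with no Amh read, while all 16 transitioning cells of plate 4 lie at Amhr2 levels between 3118 and 9051 CPM and spread widely in Amh.

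In 1 block of cells the 2 genes differed in how evenly cells carried them. In the 16 transitioning cells of plate 4, Amhr2 ran from 3118 to 9051 CPM, a 2.90-fold range with a coefficient of variation (SD over mean) of 0.249. Genes of like level (within 2-fold in mean) had a median of 0.627, and 3.45% of those 87 genes varied less than Amhr2. Inha gave 0.272, whereas Amh ran from 133 to 12462 CPM in the same 16 cells, with a coefficient of variation of 0.963 and 74.5% of 184 genes of like level varying less. Counting alone would give about 0.0622 for Amh and 0.0456 for Amhr2 in these cells. Elsewhere Amhr2 was less even, with coefficients of 1.17 in primordial cells of plate 1 and 0.724 in primary cells of plate 2, both below the medians of genes of like level (1.42 and 0.865). In the 19 primary cells of plate 5, Amh had a coefficient of 1.03, higher than 86.3% of 73 genes of like level. In other blocks Amh varied less than most genes of like level, with 31.9% of them lower in primary cells of plate 2, 29.5% in secondary cells of plate 5, 25.2% in transitioning cells of plate 3 and 5.10% in transitioning cells of plate 1.

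Oocytes held almost no reads of either gene. Amh summed to 14344 counts in 185 somatic cells (1785 CPM), against 13 counts in 59 oocytes (1.96 CPM, 1.05 to 3.36), a log2 ratio of 9.83 (9.05 to 10.7). Reads of Amh were found in 9 of 59 oocytes (15.3%), with at most 3 counts in any of them, although oocytes were deeper (median 46686 counts over the listed genes, against 29205 in somatic cells). Amhr2 summed to 18819 counts in 85 somatic cells, against 19 in 36 oocytes, all in 1 primordial oocyte of plate 1 (161 CPM). On plates 2 and 4 no Amhr2 read was found in 23 oocytes, and somatic cells were at least 2584-fold and 3689-fold higher. Both genes belong to the somatic marker score by which the authors removed oocytes, so their scarcity in the oocytes that remain is in part fixed by that selection. Inha, another gene of that score, was read in 25 of 59 oocytes at 45.6 CPM. The 30.0% share of primordial somatic cells with Amh overlaps the oocyte share within counting error, but their summed levels do not, at 166 CPM (145 to 190) against 1.43 CPM (0.39 to 3.67) in primordial oocytes.

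No gene met the rule set for following Amh across cells. Cells of 1 stage on 1 plate were taken as a block where at least 8 cells were present and at least 50% had Amh reads, which gave 8 blocks with 155 cells. Genes listed on every plate, without a clone or predicted name, and read in at least 50% of the cells of each block were ranked by Spearman's rho of log2(CPM + 1) with Amh, averaged over blocks by their cells. The name filter missed the clone name CH36-205D18.4, which stayed in this ranking and in that for Amhr2 below. Of the 123 genes ranked, 0 (0.0%) had a mean rho of at least 0.3 with rho above 0 in every block, and 0 (0.0%) were opposed to the same degree. Mean rho ran from -0.17 to 0.41 with a median of 0.12, and blocks of 8 to 32 cells give imprecise values.

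The highest mean values belonged to Arxes2 (0.41), an X-linked gene known from adipocytes, and Inha (0.39). They were followed by Slc18a2 (0.30), the vesicular monoamine transporter, the mitochondrial protease Lonp1 (0.30) and Cpt1a (0.28), which brings long-chain fatty acids into mitochondria. Jun (0.28), the translation factor gene Eif3a (0.26), the glypican Gpc4 (0.26), the malic enzyme Me2 (0.26) and Carhsp1 (0.26) completed the first 10. The first 2 were positive in 6 of 8 blocks. Inha reached 0.81 in transitioning cells of plate 1 and 0.59 in primary cells of plate 2, but the value for transitioning cells on plate 4 was -0.16, and that for secondary cells on plate 6 was -0.33. Of the 123 genes, 6 were positive in 8 of 8 blocks, namely Cpt1a, Eif3a, Me2, Gas6, Gstp1 and Fth1, each with a mean rho under 0.3. Their values in single blocks reached 0.60 for Me2 in transitioning cells of plate 4 and were as low as 0.0092 for the same gene in secondary cells of plate 6. Gas6, Gstp1 and Fth1 were picked out after their values were seen. At the other end stood mt-Nd2 (-0.17), Ddx21 (-0.17), Elob (-0.09), mt-Nd1 (-0.08) and mt-Co2 (-0.07), of which the mt genes encode respiratory chain subunits of the mitochondrial genome. All cells of a block share a plate, and Amh itself had a mean rho of -0.21 with the total count and 0.22 with the share of reads on rRNA. Their part in these values was not tested.

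**Figure D5:**
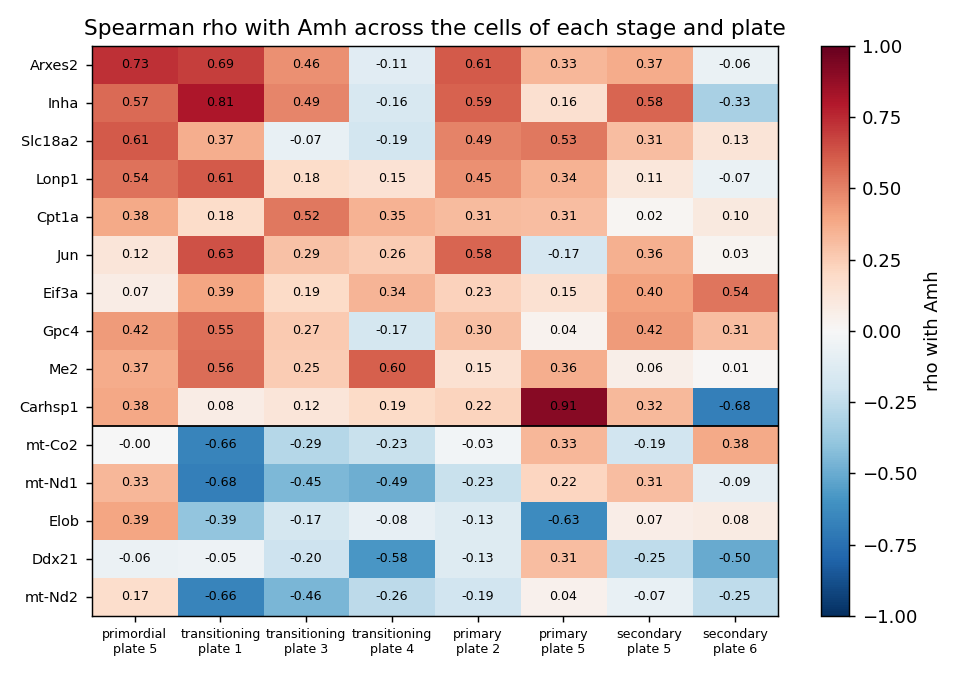
Spearman's rho with Amh (colour and printed value) for the 10 genes with the highest and, below the line, the 5 with the lowest mean rho, in each of the 8 blocks of 1 stage on 1 plate. Arxes2 and Inha are above 0 in 6 of 8 blocks and below 0 in the columns of plate 4 (transitioning) and plate 6 (secondary).

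The leading genes differed from stage to stage. At the primordial stage (1 block, 21 cells) they were Cox5a (0.75), Arxes2 (0.73), Sod1 (0.66), Slc18a2 (0.61) and Cox6a1 (0.60), which include 2 subunits of cytochrome oxidase and a superoxide dismutase. Transitioning cells (3 blocks) were led by Ier2 (0.45), Akap8l (0.44), Dcaf12 (0.43), Me2 (0.42) and Cpt1a (0.40). Primary cells (2 blocks) were led by Arxes2 (0.51), Slc18a2 (0.51), Carhsp1 (0.48), Inha (0.43) and Mea1 (0.43), and secondary cells (2 blocks) by Robo1 (0.44), Eif3a (0.44), Gpc4 (0.39), Raver1 (0.37) and Ctxn1 (0.35). Arxes2 and Slc18a2 were among the first 5 of both the primordial and the primary stage. Ier2 and Jun, named above, are immediate early genes that dissociation is known to induce.

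Among genes that only some plates list, Amhr2 had a rho with Amh of 0.48 in transitioning cells of plate 1 (8 cells), 0.47 in those of plate 4 (16 cells) and 0.42 in primary cells of plate 2 (32 cells). Esr2, estrogen receptor beta of granulosa cells, picked after its values were seen, was above 0 in 5 of 5 blocks (0.18 to 0.62, mean 0.46). With the 8 cells that lacked Inha reads left out, the mean fell to 0.30 for Amhr2, 0.36 for Esr2, 0.32 for Arxes2 and 0.20 for Slc18a2. The value of Amhr2 in primary cells of plate 2 was then 0.14. Foxl2 had a mean rho of 0.23 (7 of 8 blocks above 0), Gata6 0.21, Nr5a1 0.14 over 6 blocks and Fshr, the receptor for follicle-stimulating hormone, -0.004.

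The same ranking was made for Amhr2, after the values for Amh were seen, over the 4 blocks of plates 1, 2 and 4 with enough cells (75 cells) and 121 genes. Mean rho was at least 0.3 with rho above 0 in every block for 4 genes (3.31%). They were Col18a1 (0.47), a collagen of basement membranes, Gstm2 (0.38), B2m (0.34) and Aldh1a1 (0.34), a retinaldehyde dehydrogenase, against a median of 0.08 over all 121. Inha (0.34) and Arxes2 (0.33) came next to them and were above 0 in 3 of 4 blocks.

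Genes around the hormone were read as lists of 51 genes in all, of which 15 had values on every plate and 25 each on plates 1 and 5. With a minimum of 5 CPM at either stage, 8 of 12 list genes were higher by at least 1 on the log2 scale in transitioning than in primordial cells over all plates, where 41.1% of all genes were higher, and 2 were lower, where 29.1% were. Their median log2 ratio was 2.10, against 0.48 over all genes. Over all plates, primary cells were higher than transitioning cells in 3 of 12 (27.6% of all genes) and lower in 1 (34.2%). Secondary cells were higher than primary cells in 3 of 12 (35.4%) and lower in 0 (25.4%). On plate 5, 14 of 22 were higher in primary than in primordial cells (43.9% of 6845 genes) and 3 were lower (18%), with a median of 1.20, against 0.79 over all genes. On plate 1, transitioning cells were higher than primordial cells in 11 of 19 list genes (26.2% of 7657 genes) and lower in 4 (42.4%). Primary cells there were higher than transitioning cells in 7 of 21 (43.9%) and lower in 3 (23.7%), and secondary cells were higher than primary cells in 3 of 20 (29.1%) and lower in 5 (27.6%). Secondary cells of plate 5 were higher than primary cells in 2 of 22 (24%) and lower in 2 (21.1%).

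Of receptors and Smads, few were listed. Bmpr1a, a type I receptor, had 276 CPM in transitioning and 170 CPM in primordial cells of plate 1, and 149 CPM in secondary against 546 CPM in primary cells. On plate 5, Smad5 had 1144 CPM in primary and 539 CPM in primordial cells (log2 ratio 1.09), and Smad1 45.1 and 31.1 CPM. Smad9 had at most 1 count at any stage. In transitioning against primordial cells of plate 1, 2 of 3 target genes were higher (26.2% of all genes) and 1 lower (42.4%), and in primary against primordial cells of plate 5, 2 of 2 were lower (18%), counts too small to read against those shares. The median log2 ratio of the 3 target genes on plate 1 was 2.62. Id3, an inhibitor of helix-loop-helix factors, was the 1 lower gene there, with 765 CPM in transitioning against 2498 CPM in primordial cells. On plate 5, Id2 had 16.1 CPM in primary and 172 CPM in primordial cells, and Smad7 had 22.6 and 102 CPM in the same groups. Smad7 was 64.5 CPM in secondary cells of plate 5, against 22.6 CPM in primary cells. Furin, a proprotein convertase that can cleave the hormone, had 58.1 CPM in transitioning and 1085 CPM in primordial cells of plate 1.

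Among known regulators of Amh, 5 of 8 were higher in primary than in primordial cells of plate 5 (43.9% of all genes) and none was lower (18%). In transitioning against primordial cells of plate 1, 2 of 5 were higher (26.2%) and 1 was lower (42.4%), with a median log2 ratio of 0.0085. Of those on plate 5, Foxl2 had 1112 CPM in primary and 289 CPM in primordial cells (log2 ratio 1.94). Plate 1 did not show this rise of Foxl2, at 831 CPM in primary and 925 CPM in primordial cells (-0.16), and over all plates the log2 ratio was -0.43. On plate 5, Esr2 had 2948 and 1150 CPM (1.36), Nr0b1, a corepressor of Nr5a1, 116 and 46.6 CPM (1.32), and Nr5a1 1418 and 671 CPM (1.08). Nr0b1 was read in only 21.1% of these primary and 14.3% of these primordial cells. Wt1 (2275 and 1601 CPM), Gata6 (557 and 390 CPM) and Sox9 (242 and 276 CPM) differed by less than the threshold. Between secondary and primary cells of plate 5, 0 of 8 were past it. Nr5a1 was read in 10 of 19 primordial cells of plate 1, in which Amh had no read, at 578 CPM, and in 19 of 21 of plate 5 at 671 CPM. Gata4 had 642 CPM in transitioning and 2202 CPM in primordial cells of plate 1 (log2 ratio -1.78).

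Of other hormones and receptors of granulosa cells, 5 of 6 were higher (43.9% of all genes) and 1 lower (18%) in primary than in primordial cells of plate 5. Inha had 46502 CPM in primary and 6288 CPM in primordial cells, and Inhbb, the inhibin beta B subunit, had 1179 and 114 CPM. Fshr had 412 CPM in primary cells and no read in primordial cells, a log2 ratio of at least 6.73. Igf1, a growth factor, had 2594 CPM in primary and 465 CPM in primordial cells, and Nppc, the natriuretic peptide that holds oocytes in meiotic arrest, 187 and 20.7 CPM. Bmp2 was lower, at 22.6 CPM in primary and 128 CPM in primordial cells. Some of these sums rest on few cells. Fshr was read in 26.3% of the primary cells, and Nppc in 31.6% of primary and 23.8% of primordial cells. Bmp2 was read in 5.26% of primary and 42.9% of primordial cells. The log2 ratio of Amh in this comparison was 4.47, above that of Inha (2.89) and Inhbb (3.37) and below the bound for Fshr. Next to Amh, Jsrp1 had 70.9 CPM in primary and 35 CPM in primordial cells of plate 5, and 20.9 CPM in secondary cells. Plekhj1, also a neighbour of Amh, had 509 and 136 CPM in primary and primordial cells.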

How the data were processed

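The authors aligned paired-end SMART-Seq2 reads to GRCm38 and deposited a table of estimated counts per gene and cell, in which the counter and strand setting are not given in the sources used here; Seurat 4 stands in their processing notes. Cells with few genes or a high marker score of the other cell type had been removed, and values from batch integration were not used. For each cell the authors also deposited its library plate, its stage and an rRNA read fraction. All counts of Amh and Amhr2 were whole; 27 rows with dates in place of names were left out. Stage came from the sample titles; 2 somatic cells have another stage in the metadata. Doublets were not called. Cells of a group were summed, divided by the sum of the 13266 genes listed on every plate, and given as CPM with exact Poisson intervals; shares have exact binomial (Clopper-Pearson) intervals and ratios the exact interval of the split of counts, at 95%. Reads carry no molecular identifiers, so intervals and floors (3 counts) cover counting error only. A list gene with 0 counts against 3 or fewer was set at a log2 ratio of 0. Named genes were both members, the first 10 and last 5 in likeness to Amh, the first 5 of each stage, and list members; members and lists were chosen with earlier results of these data known. Alternatives were mean CPM of cells, TMM (edgeR 4.0.16), DESeq2 1.42.0 size factors, thinning to 12000 counts (20 draws; 1 for likeness), all counts as total, single plates, plates left out, other blocks and filters. The ratio and likeness steps were tested on simulated data. Python 3.11.15, numpy 2.4.6, pandas 2.3.3, scipy 1.17.1 and R 4.3.3 were used. The values of 1 list gene are not reported here, though the counts over its list include it.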

Additional observations from a re-analysis of the deposited data

How the results depend on the processing

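All values here are log2 ratios unless named otherwise. Transitioning against primordial cells kept its direction for Amh, at 3.10 with the mean of single cells, 3.56 with TMM factors, 3.39 with DESeq2 size factors, 3.56 thinned and at least 5.69 on plate 1, and from 3.26 to at least 8.58 with a plate left out. Primary against transitioning cells turned round for Amh at 0.29 with the mean of single cells, 2.16 on plate 1 and 0.69 without plate 2 (range with a plate left out -2.27 to 0.69), and was -0.94 (TMM), -0.92 (DESeq2), -0.13 (thinned) and -0.91 (all counts as total). Secondary against primary cells turned round at -0.67 on plate 5 and -0.0086 without plate 2 (range -0.0086 to 2.94), and was 0.70 (mean of cells), 1.44 (TMM), 1.55 (DESeq2), 1.07 (thinned), 1.23 (all counts) and 0.76 (plate 1). Somatic cells against oocytes gave 8.56 (mean of cells), 8.65 (TMM), 8.18 (DESeq2), 8.39 (thinned), 8.42 (plate 1), at least 10.96 (plate 4) and 7.55 (plate 5) for Amh. For Amhr2 they gave 8.82 (TMM), 8.43 (DESeq2), 9.33 (thinned), 7.69 (plate 1), at least 11.3 (plate 2) and at least 11.8 (plate 4).

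Transitioning against primordial cells turned round for Amhr2 on plate 1, which is also the value without plate 4 (-0.69), and was 0.62 (mean of cells), 1.51 (TMM), 0.71 (thinned) and 1.60 (all counts). Primary against transitioning cells gave -0.31 (mean of cells), -0.57 (TMM), -0.60 (DESeq2), -0.31 (thinned), -0.53 (all counts), -0.79 (conflicting stages left out) and 1.60 (plate 1), with -1.01 to 1.17 when a plate was left out. Secondary against primary cells gave 0.84 (mean of cells), 0.56 (TMM), 1.09 (DESeq2), 0.83 (thinned), 0.049 (all counts) and 0.79 (plate 1, and without plate 2). The cause of these differences was not tested.

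The number of genes that follow Amh, 0 in the report, was 1 thinned (Arxes2), 1 with Pearson's r (Fth1), 4 with blocks of at least 12 cells, 3 with reads in at least 25% of cells, 17 with all cells of a stage as 1 block, 1 without the cells of conflicting stages, and 3 by mean rho alone. Leaving out plates, mean rho alone and leaving out cells without Inha reads were chosen after seeing the data. Shares of somatic cells with Amh reads were 24.7, 90.7, 78.7 and 100% from primordial to secondary after thinning. No paired analysis was possible because the replicate numbers only name cells and no result comes from a test. Groups of 5 cells and of 1 plate limit the secondary level of Amhr2.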

Other observations

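Both somatic cells with conflicting stages lie on plate 1. The cell titled primary and given as secondary in the metadata had 560 CPM of Amh and 6863 CPM of Amhr2. The cell titled transitioning and given as primary had 728 CPM of Amh and no Amhr2 read.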
